A study of Homo sapiens with 16 samples.

Results

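The data compare A549 cells given the compound 5G6 with A549 cells given the solvent DMSO, both collected after 48 h. A549 is an established human lung adenocarcinoma line, and every culture in the series overexpressed CD63-Nluc, in which the luciferase reporter Nluc is joined to CD63, a tetraspanin of exosomes. The 4 libraries were chosen by their titles, 2 for 5G6 at 48 h and 2 for DMSO at 48 h, out of 16 libraries from 8 groups of 2. The groups compared here were 5G6 at 48 h, 5G6 at 4 h, 6D7 at 48 h, 7F8 at 48 h, DMSO at 48 h and DMSO at 4 h. The libraries of 6D7 at 4 h and 7F8 at 4 h were not compared but entered the fit that estimated the spread. 5G6, 6D7 and 7F8 are code names and no structure is given for them. The labels print a dose of 4 µM for each treatment, the solvent included. Whether the reporter line is 1 clone or a pool is not given in the sources used here. The series text calls the 2 libraries of a group biological replicates but names no separate cultures or days, so the p-values measure only the spread between these samples.

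Cells sense cholesterol in the endoplasmic reticulum. When the sterol there runs low, the protein SCAP carries the membrane-bound precursors of the SREBP transcription factors to the Golgi, where they are cut, and the freed factors switch on genes of sterol synthesis, fatty acid synthesis and cholesterol uptake. INSIG proteins hold SCAP back when sterol is plentiful. AMPK, a kinase switched on when the cell's energy runs low, restrains lipid synthesis and supports lysosome formation through folliculin (FLCN) and the TFE transcription factors. Exosomes form inside endosomes, which either fuse with the cell surface and release them or fuse with lysosomes, so lysosomal and exosomal genes bear on the same organelles. The series title joins these themes, which is why the gene lists below start from sterol, lysosome and exosome genes before stress and growth.

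RNA levels are in TPM, a length-normalized share of all transcripts, from the deposited abundance tables. They were rescaled to the same fixed sum after genes of chromosome M were dropped. A log2 fold change is the difference of mean log2(TPM + 1), 5G6 over DMSO, which understates change in weakly expressed genes. A gene is called when its limma p-value, adjusted by the Benjamini-Hochberg method over all genes tested, is below 0.05, and "rose" and "fell" are used of called genes alone. Exact zeros can be failed estimates, so such genes are described as listed at 0. In bulk RNA, fewer cells of a kind and less RNA per cell cannot be told apart.

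The 2 libraries of 5G6 held 6.41 and 7.24 aligned gigabases, against 6.72 and 6.61 for DMSO, as computed from coverage and FPKM. Read numbers per gene were not used, so no counting error can be given. All 10 markers of the A549 line were present, with a summed level of 17355 to 21594 TPM with 5G6 and 25426 to 30645 TPM with DMSO, and the defining genes CD3E of T cells, CDH5 of endothelium, SFTPA1 of surfactant cells, and COL1A2, LUM and DCN of fibroblasts were listed at 0 in all 4 libraries. At or above 1 TPM were COL1A1 of 6 fibroblast markers, a list that summed to 3.54 to 7.24 TPM with 5G6 and 5.93 to 20.9 TPM with DMSO, and NAPSA of 5 surfactant markers, which summed to 2.28 to 2.39 TPM with 5G6 and 1.21 to 2.48 TPM with DMSO. The leukocyte list had 2 of 6 members at or above 1 TPM, CD14 and CD68, with a summed level of 154 to 343 TPM with 5G6 and 47.2 to 94.1 TPM with DMSO.

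Of 15958 genes tested, 648 were called (4.06%), 311 higher (1.95%) and 337 lower (2.11%) with 5G6. In each of the 648 both 5G6 libraries stood on one side of both DMSO libraries, as did 20% of all genes tested upward and 28.7% downward. Because of this, leaving out 1 library could not change the sign of any of the 648. At least 2-fold change was reached by 482 of them. After median-of-ratios scaling, which moves the median of all genes to 0.0054 where it was -0.067 on TPM, 576 genes were called, 365 higher and 211 lower, and 492 genes were called in the same direction under both scalings. The calls were fragile with 2 libraries a group. A fit of the 8 libraries at 48 h alone called 6 genes, 5 higher and 1 lower, and one of the 4 libraries alone 56, 48 higher and 8 lower. Of the 311 genes called higher, 5 were also called higher in the first of these fits and 42 in the second. Of the 337 called lower, 0 and 5 were also called lower there, so the falls held up less well than the rises. Leaving out 5G6 replicate 1, 5G6 replicate 2, DMSO replicate 1 or DMSO replicate 2 gave 29, 62, 9 and 221 calls, and the same order of leave-outs is used for the lists below. The sign of each of the 648 was the same in all 4 leave-outs, and 6 genes were called in all of them: NEU1, SOD2, IGFBP1, CSTB and ABHD3 higher, and DDC lower.

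**Figure D1:**
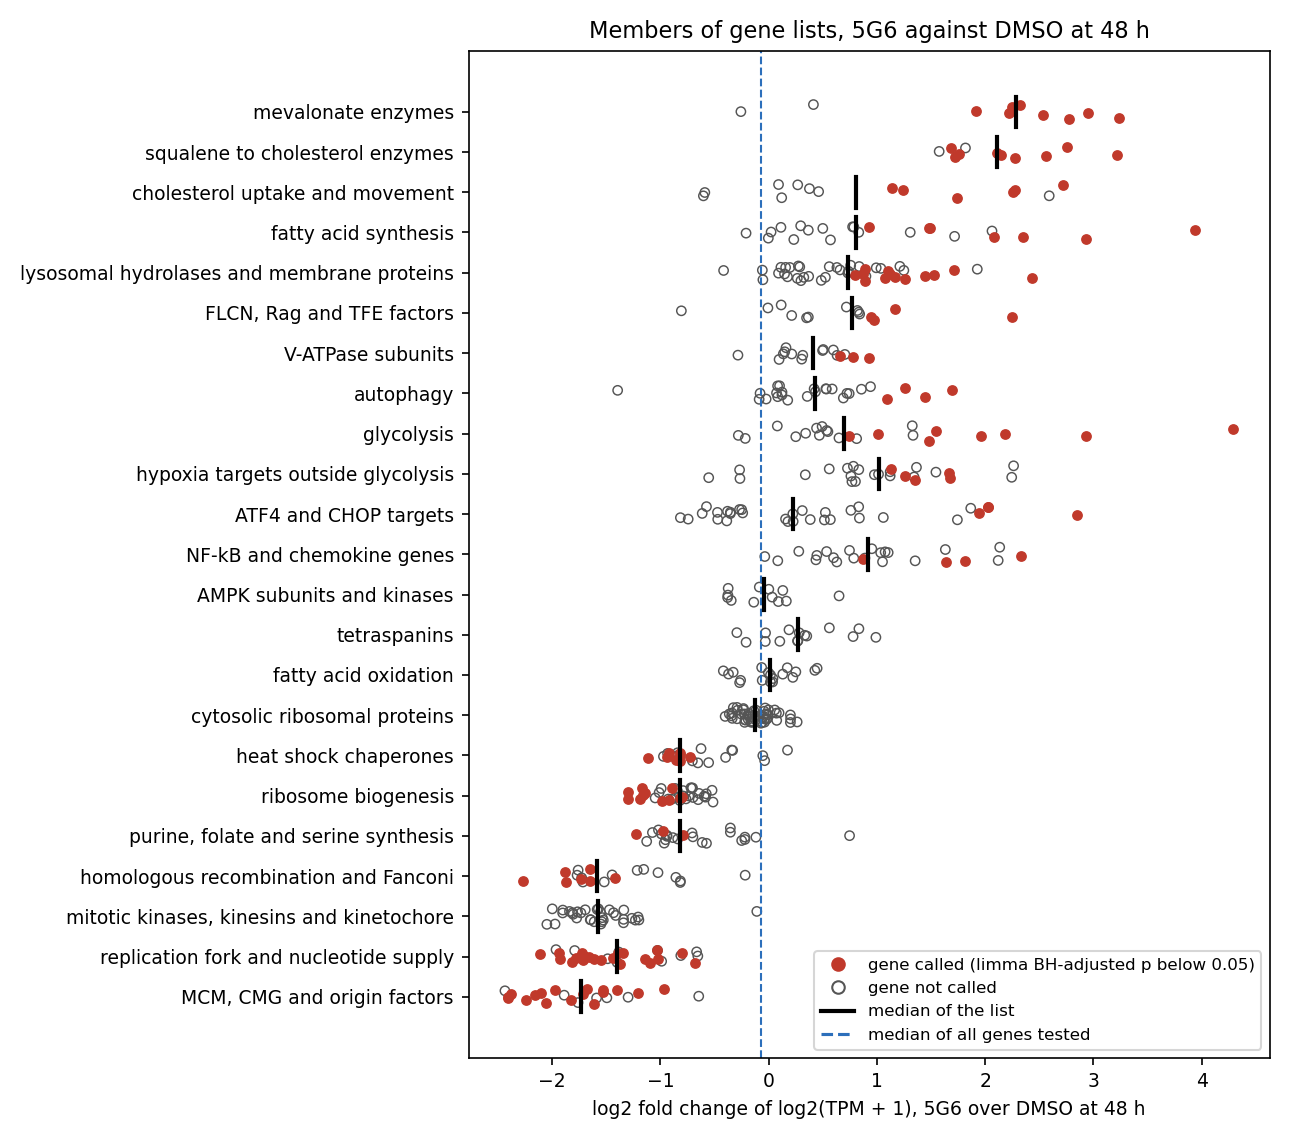
Each point is 1 tested gene of a list, placed at its log2 fold change of log2(TPM + 1), 5G6 over DMSO at 48 h, red where called by limma and open where not. Black bars are list medians and the dashed line the median of all 15958 genes tested (-0.067): sterol synthesis lists centre near 2, AMPK subunits and ribosomal proteins near 0, and replication lists below -1.

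NEU1, DDC and SOD2 were among the genes least dependent on any 1 library. NEU1, the lysosomal sialidase, had 157 and 142 TPM with 5G6, against 26.6 and 26.98 TPM with DMSO, and its log2 fold change was 2.44 ± 0.24 (SE, adjusted p = 0.00266). The groups did not overlap and the libraries within each group lay close together. Values of NEU1 from alternate copies of its region on chromosome 6 were added. CSTB, cystatin B, an inhibitor of cathepsins, rose by 2.28 on the log2 scale (adjusted p = 0.00395), and ABHD3, a phospholipase, by 1.67 (adjusted p = 0.004). DDC, the aromatic amino acid decarboxylase, had 1.05 and 0.883 TPM with 5G6, against 9.95 and 8.40 TPM with DMSO. It fell to roughly the level of the filter in both 5G6 libraries (log2 fold change -2.37 ± 0.22, adjusted p = 0.00266).

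Sterol synthesis genes rose along most of the pathway. Of 10 enzymes of the mevalonate pathway, which makes the isoprenoid units of cholesterol, 8 rose and 0 fell, with a median log2 fold change of 2.28 against -0.067 for all genes tested. MVD, the decarboxylase that makes isopentenyl diphosphate, had 509.9 and 289 TPM with 5G6, against 44.1 and 36.2 TPM with DMSO. Every 5G6 value was above every DMSO value, and the log2 fold change was 3.23 ± 0.51 (adjusted p = 0.00942). FDPS, which joins isoprenoid units into farnesyl diphosphate, had 1585 and 1094 TPM with 5G6, against 251 and 204 TPM with DMSO (adjusted p = 0.015). IDI1, the isomerase between those steps, had 386 and 377 TPM with 5G6, against 55.8 and 54.2 TPM with DMSO, with the 2 libraries of each group nearly equal (adjusted p = 0.0163). Not every enzyme rose. PMVK, the kinase between MVK and MVD, had 70.5 and 64.8 TPM with 5G6, against 80.4 and 81.4 TPM with DMSO (adjusted p = 0.558), the one member with both 5G6 values below both DMSO values. GGPS1, which leads away from sterols to geranylgeranyl groups, had 30.0 and 35.6 TPM with 5G6, against 22.1 and 26.7 TPM with DMSO (adjusted p = 0.406).

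From squalene to cholesterol, 9 of 11 enzymes rose and 0 fell, with a median of 2.11. MSMO1, which removes methyl groups from the sterol ring, had 532 and 481 TPM with 5G6, against 49.0 and 58.5 TPM with DMSO, and its log2 fold change of 3.22 ± 0.49 (adjusted p = 0.00859) was the highest of the list. EBP, the sterol isomerase, had 702 and 483 TPM with 5G6, against 163 and 105 TPM with DMSO (adjusted p = 0.0152). SC5D, a desaturase near the end of the pathway and the least abundant member named here, had 23.6 and 24.8 TPM with 5G6, against 6.34 and 6.95 TPM with DMSO (adjusted p = 0.016). These groups were well apart in all 3 genes. The members that missed the threshold, NSDHL and TM7SF2, also stood higher in both 5G6 libraries, at 210.4 and 129 TPM with 5G6, against 62.2 and 48.1 TPM with DMSO for NSDHL (adjusted p = 0.0618) and 103 and 62.0 TPM with 5G6, against 18.0 and 26.7 TPM with DMSO for TM7SF2 (adjusted p = 0.0681). In the 4 leave-outs the mevalonate list had 0, 2, 0 and 2 calls and the squalene list 0, 1, 0 and 3.

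The promoters of MSMO1 and MVD are shown because both genes rose at least 8-fold and their promoters hold several copies of CCAAT, the box bound by the factor NF-Y, which is known to act with SREBPs. The 250 bases before each start come from RefSeq (GRCh38.p14), MSMO1 at chr4:165327419-165327668 on the plus strand and MVD at chr16:88663092-88663341 on the minus strand, written 5′ to 3′ along the gene with CCAAT or its reverse complement in capitals.
MSMO1: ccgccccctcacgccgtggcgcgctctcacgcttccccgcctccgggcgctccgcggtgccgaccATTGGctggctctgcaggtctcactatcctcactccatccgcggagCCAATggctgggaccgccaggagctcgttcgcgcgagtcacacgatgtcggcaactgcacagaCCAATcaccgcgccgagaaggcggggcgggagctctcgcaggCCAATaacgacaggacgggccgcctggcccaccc
MVD: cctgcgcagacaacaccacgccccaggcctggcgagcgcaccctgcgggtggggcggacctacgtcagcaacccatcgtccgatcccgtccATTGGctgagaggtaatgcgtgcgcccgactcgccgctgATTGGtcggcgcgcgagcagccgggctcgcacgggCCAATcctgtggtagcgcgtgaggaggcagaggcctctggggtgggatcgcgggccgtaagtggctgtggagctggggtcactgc
Among promoter windows of 300 bases, which add the 50 bases after the start, CCAAT on either strand was found in 8 of 9 squalene pathway genes (88.9%) and 4 of 7 mevalonate genes (57.1%) with a promoter in the table. The share was 36.2% among the 11264 tested genes with one, 43.1% among genes called higher and 44.1% among genes called lower. In lists described below without a gene called higher, it was 90% for endoplasmic reticulum chaperones, 70% for helicase and origin genes and 28.6% for ribosome assembly factors. The letters TCACNCCAC, a form of the sterol element bound by SREBPs, were found on either strand in 0 of 9 squalene and 0 of 7 mevalonate promoters, against 1.11% of genes tested. A match is a description of the letters and not a binding site, and no match says only that these letters are not in this window.

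Genes that move cholesterol changed in part. Of 14 tested genes for uptake and movement 6 rose and 0 fell, with a median of 0.80. NPC1, which exports cholesterol from the lysosome membrane, had 185 and 238 TPM with 5G6, against 31.1 and 30.9 TPM with DMSO (log2 fold change 2.72 ± 0.35, adjusted p = 0.0063). NPC2, the soluble lysosomal carrier that hands cholesterol to NPC1, had 592 and 481 TPM with 5G6, against 193 and 130.1 TPM with DMSO (adjusted p = 0.00788). STARD4, a cytosolic sterol carrier, had 70.2 and 87.6 TPM with 5G6, against 15.8 and 15.5 TPM with DMSO (adjusted p = 0.00781). In all 3 the DMSO values lay below the lower 5G6 value. LIPA, the lysosomal lipase that frees cholesterol from its esters (log2 fold change 1.24 ± 0.29, adjusted p = 0.0367), and SCARB1, the HDL receptor (1.14 ± 0.24, adjusted p = 0.0248), also rose. SOAT1, which esterifies cholesterol for storage, had 22.9 and 32.2 TPM with 5G6, against 15.8 and 27.1 TPM with DMSO, and the groups overlapped (adjusted p = 0.558). The 4 leave-outs gave 1, 2, 1 and 4 calls in this list, and NPC1 and NPC2 were called in 3 of them.

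Regulators were mostly not called. Of 9 genes for SREBP factors and their processing, INSIG1 alone was called, and the list median was 0.18. SREBF2, which encodes SREBP2, had 149.5 and 136 TPM with 5G6, against 60.9 and 79.1 TPM with DMSO, above DMSO in both libraries but not called (log2 fold change 1.03 ± 0.37, adjusted p = 0.148). SREBF1 had 219 and 309.7 TPM with 5G6, against 141 and 226 TPM with DMSO, and the groups overlapped (adjusted p = 0.594). Of 9 targets of LXR, the oxysterol receptors that promote cholesterol export, 0 were called, with a median of 0.34. In the 4 leave-outs the LXR median was 0.83, -0.022, 0.079 and 0.73 and that of the SREBP list 0.37, -0.016, 0.04 and 0.31, each crossing 0 without 5G6 replicate 2.

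Fatty acid synthesis rose in 7 of 22 genes and fell in 0, with a median of 0.81. ACSL4, which activates arachidonic and other polyunsaturated fatty acids, had 302 and 318 TPM with 5G6, against 53.8 and 66.7 TPM with DMSO (log2 fold change 2.35 ± 0.42, adjusted p = 0.0137). HSD17B12 and ELOVL6, enzymes of chain elongation, rose by 1.49 ± 0.26 (adjusted p = 0.0131) and 1.48 ± 0.29 (adjusted p = 0.0196). The desaturase FADS2 had 1477 and 1627 TPM with 5G6, against 475 and 466 TPM with DMSO, with the groups far apart, yet missed the threshold (adjusted p = 0.0626; 0.0473 after median-of-ratios scaling). FADS1 likewise had 1094 and 1523 TPM with 5G6, against 297 and 319.6 TPM with DMSO (adjusted p = 0.0604; 0.0425 after that scaling).

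In triglyceride metabolism 3 of 22 genes rose and 0 fell, with a median of 0.23. LPIN1, lipin 1, which makes diacylglycerol for triglycerides and phospholipids, had 92.6 and 123 TPM with 5G6, against 11.9 and 24.1 TPM with DMSO (log2 fold change 2.58 ± 0.36, adjusted p = 0.00752). PLIN2, the coat protein of lipid droplets, had 325 and 795 TPM with 5G6, against 52.4 and 123 TPM with DMSO (adjusted p = 0.0202), and its libraries within each group were more than 2-fold apart while the groups did not overlap. Fatty acid oxidation had 0 of 18 genes called and a median of 0.017. Without 5G6 replicate 2 the triglyceride and oxidation medians were -0.025 and -0.039, and without DMSO replicate 1 0.028 and -0.1. The fatty acid synthesis list had 0, 0, 0 and 3 calls in the 4 leave-outs and the triglyceride list 1, 0, 0 and 3.

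Transcripts of AMPK itself did not pass the test. Of 12 subunits and upstream kinases 0 were called, with a median of -0.042 and a range of -0.38 to 0.65. The median was 0.066, -0.24, -0.22 and 0.14 in the 4 leave-outs. PRKAA1, the catalytic alpha 1 subunit, had 28.9 and 38.3 TPM with 5G6, against 36.2 and 52.3 TPM with DMSO, and the groups overlapped (log2 fold change -0.38 ± 0.27, adjusted p = 0.51). PRKAG2, a regulatory subunit, had 76.5 and 51.3 TPM with 5G6, against 46.7 and 33.5 TPM with DMSO (adjusted p = 0.209). mRNA levels carry no reading of AMPK activity, which is set by phosphorylation.

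Many lysosomal genes were higher. Of 43 tested hydrolases and membrane proteins 13 rose and 0 fell, with a median of 0.74, and 34 had both 5G6 values above both DMSO values (20% of all genes did). Without DMSO replicate 1 the median was 0.40. CTSD, the aspartic protease cathepsin D, had 2307 and 1811 TPM with 5G6, against 598 and 842 TPM with DMSO (log2 fold change 1.53 ± 0.22, adjusted p = 0.00752). CTSB, the cysteine protease cathepsin B, had 602 and 528 TPM with 5G6, against 182 and 234 TPM with DMSO (adjusted p = 0.00805). ASAH1, acid ceramidase, had 287 and 306 TPM with 5G6, against 82.1 and 98.0 TPM with DMSO (adjusted p = 0.00859). The rises were about 3-fold in these abundant genes, and the groups were clearly apart. Genes of sphingolipid breakdown were among the others that rose. The log2 fold change was 1.11 ± 0.18 for PSAP, which encodes the saposins (adjusted p = 0.0101), and 0.79 ± 0.20 for ARSA, arylsulfatase A (adjusted p = 0.0453). For SMPD1, acid sphingomyelinase, it was 1.12 ± 0.28 (adjusted p = 0.0453, and 0.0704 after median-of-ratios scaling).

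CTSA encodes the carboxypeptidase that protects NEU1 in the lysosome, and it had 132 and 140.4 TPM with 5G6, against 59.5 and 69.1 TPM with DMSO (log2 fold change 1.08 ± 0.21, adjusted p = 0.019). Its promoter is shown because it holds the letters TCACGTGA, a form of the CLEAR element bound by TFEB and TFE3, in the 250 bases before the start (RefSeq, GRCh38.p14, chr20:45891085-45891334, plus strand, match in capitals).
CTSA: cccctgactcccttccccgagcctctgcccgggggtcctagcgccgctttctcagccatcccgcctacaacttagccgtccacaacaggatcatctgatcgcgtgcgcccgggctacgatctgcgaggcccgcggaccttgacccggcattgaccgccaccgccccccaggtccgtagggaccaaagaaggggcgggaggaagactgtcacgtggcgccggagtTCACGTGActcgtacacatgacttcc
The same letters, which read alike on both strands and contain the hypoxia core ACGTG, were found in 5 of 28 lysosomal genes with a promoter in the table (17.9%), against 1.86% of genes tested. The share was 1.9% among genes called higher and 2.68% among genes called lower.

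The proton pump that acidifies lysosomes had 3 of 16 V-ATPase subunits called higher and 0 lower, with a median of 0.41. ATP6AP1, an accessory subunit, had 276 and 241 TPM with 5G6, against 128 and 143 TPM with DMSO (adjusted p = 0.0219). Among 14 genes of the Rag, FLCN and TFE group, which ties nutrient supply at the lysosome to these promoters, 4 rose and 0 fell, with a median of 0.77. RRAGD, a Rag GTPase that presents TFE factors to mTORC1, had 13.3 and 18.6 TPM with 5G6, against 2.19 and 2.89 TPM with DMSO, the largest change of the group (log2 fold change 2.25 ± 0.25, adjusted p = 0.004). RRAGC, its paralog, had 33.2 and 37.2 TPM with 5G6, against 12.8 and 17.8 TPM with DMSO (adjusted p = 0.0166), and RRAGA, their partner, 225 and 297 TPM with 5G6, against 133 and 135 TPM with DMSO (adjusted p = 0.0131). All 3 were free of overlap. PIP4P1, a lysosomal phosphoinositide phosphatase, had 96.1 and 97.7 TPM with 5G6, against 48.3 and 49.1 TPM with DMSO, with pairs of nearly equal libraries (adjusted p = 0.00912). FLCN, the GTPase activator of RRAGC and RRAGD, had 48.4 and 62.4 TPM with 5G6, against 28.2 and 33.4 TPM with DMSO and was not called on TPM (adjusted p = 0.0618) but was after median-of-ratios scaling (adjusted p = 0.023).

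Autophagy, which delivers cargo to lysosomes, had 4 of 26 genes called higher and 0 lower, with a median of 0.43 (0.28 without DMSO replicate 1). SQSTM1, the cargo receptor p62, had 2172 and 1653 TPM with 5G6, against 709.7 and 678 TPM with DMSO (log2 fold change 1.45 ± 0.22, adjusted p = 0.00859). OPTN, optineurin, another receptor, had 118 and 107 TPM with 5G6, against 48.4 and 44.4 TPM with DMSO (adjusted p = 0.00859), and MAP1LC3B, the LC3 protein of the autophagosome membrane, 123 and 136 TPM with 5G6, against 56.4 and 63.4 TPM with DMSO (adjusted p = 0.021). Within each group these libraries were close. In the 4 leave-outs the hydrolase list had 1, 3, 1 and 7 calls, the Rag group 2, 1, 0 and 3, the autophagy list 0, 1, 0 and 2 and the V-ATPase 0, 0, 0 and 0.

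Exosome genes were called about as often as all genes. Of 15 tetraspanins 0 were called, with a median of 0.27 (0.12 to 0.30 in the 4 leave-outs, lowest without 5G6 replicate 1). CD63, whose value joins the transgene and the cell's own gene without telling them apart, had 2609 and 2441 TPM with 5G6, against 1902 and 2054 TPM with DMSO, higher in both 5G6 libraries (log2 fold change 0.35 ± 0.24, adjusted p = 0.47). CD9 had 268 and 378 TPM with 5G6, against 159 and 199.8 TPM with DMSO, and the groups did not overlap (adjusted p = 0.181). Among 24 genes of exosome formation, SDCBP alone was called (4.17%, against 4.06% of all genes). SDCBP encodes syntenin, the adaptor that loads syndecans into exosomes, and had 418 and 479 TPM with 5G6, against 156 and 201 TPM with DMSO (log2 fold change 1.33 ± 0.22, adjusted p = 0.0116). Among 23 genes of exosome release, STX3 alone was called (4.35%). STX3 is a fusion protein of the cell surface and had 28.0 and 28.2 TPM with 5G6, against 8.18 and 13.5 TPM with DMSO (adjusted p = 0.0131). RAB27A and RAB27B, the GTPases that dock endosomes at the cell surface, had 10.02 and 17.3 TPM with 5G6, against 7.06 and 11.1 TPM with DMSO and 68.0 and 66.8 TPM with 5G6, against 26.005 and 54.0 TPM with DMSO, and were not called (adjusted p = 0.452 and 0.148). SDCBP and STX3 were called in 1 of the 4 leave-outs, that without DMSO replicate 2.

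**Figure D2:**
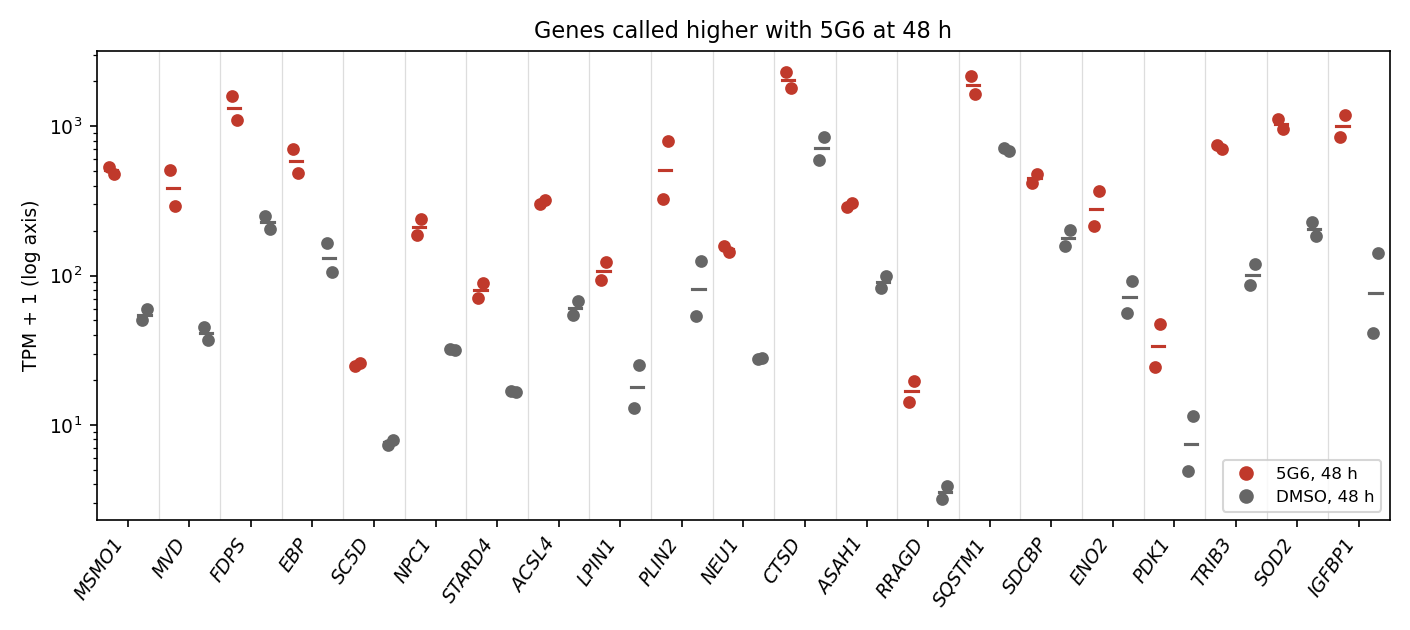
Points are single libraries, TPM + 1 on a log axis, of 21 genes called higher, with 5G6 left of DMSO for each gene and a bar at the mean of the logs. The 5G6 points of each gene lie above its DMSO points, from RRAGD (13.3 and 18.6 TPM with 5G6) to CTSD (2307 and 1811 TPM with 5G6).

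Glycolysis rose in 8 of 22 genes and fell in 0, with a median of 0.70. PGK1, which makes ATP in the lower part of the pathway, had 1093 and 1407 TPM with 5G6, against 359.7 and 501 TPM with DMSO (log2 fold change 1.54 ± 0.22, adjusted p = 0.00752). ENO2, the neuronal enolase, had 214 and 365 TPM with 5G6, against 55.3 and 91.0 TPM with DMSO (adjusted p = 0.0119). PDK1, the kinase that keeps pyruvate out of mitochondria, had 23.4 and 46.0 TPM with 5G6, against 3.87 and 10.4 TPM with DMSO (adjusted p = 0.0131). DMSO replicate 1 was the lower DMSO library in all 3, and neither group reached into the other. SLC16A3, the lactate exporter MCT4, rose by 1.48 ± 0.32 (adjusted p = 0.0279) and the muscle aldolase ALDOA by 1.01 ± 0.18 (adjusted p = 0.0131).

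Other targets of the hypoxia factor HIF had 5 of 25 genes called higher and 0 lower, with a median of 1.02. BNIP3, a receptor for the removal of mitochondria, had 246 and 386 TPM with 5G6, against 73.4 and 126 TPM with DMSO (adjusted p = 0.0191), and its relative BNIP3L 132 and 200.4 TPM with 5G6, against 31.7 and 80.9 TPM with DMSO (adjusted p = 0.0353). ERO1A, an oxidase of the endoplasmic reticulum, had 112 and 207 TPM with 5G6, against 47.7 and 83.2 TPM with DMSO (adjusted p = 0.0453). The libraries within a group spread widely in these genes, with DMSO replicate 1 the lowest of the 4 each time. Without that library the list median was 0.45 and 0 members were called. Without DMSO replicate 2 the median was 1.40, with 8 called. The glycolysis list had 5, 2, 0 and 6 calls in the 4 leave-outs. TXNIP, an inhibitor of glucose uptake, had 28.0 and 8.76 TPM with 5G6, against 1.37 and 5.35 TPM with DMSO, and its list of 5 genes had 0 called.

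A minority of stress genes rose. Of 32 targets of ATF4 and CHOP, the factors of the integrated stress response, 4 rose and 0 fell, with a median of 0.23, with 14 having both 5G6 values above both DMSO values (20% of all genes did) and 9 having both below (28.7% of all genes did). Without 5G6 replicate 2 the median was 0.13. TRIB3, a pseudokinase, had 753 and 706 TPM with 5G6, against 85.2 and 118 TPM with DMSO (log2 fold change 2.85 ± 0.41, adjusted p = 0.00788). GDF15, a secreted stress signal, had 488 and 525 TPM with 5G6, against 114 and 149.8 TPM with DMSO (adjusted p = 0.00585), NUPR1, a small chromatin protein, 45.9 and 71.0 TPM with 5G6, against 10.9 and 16.02 TPM with DMSO (adjusted p = 0.0213), and CHAC1, which degrades glutathione, 22.2 and 22.8 TPM with 5G6, against 5.47 and 4.15 TPM with DMSO (adjusted p = 0.0351). All 4 had groups clearly apart. The factors themselves were not called, with 556 and 563 TPM with 5G6, against 415 and 364 TPM with DMSO for ATF4 (adjusted p = 0.16) and 134 and 99.8 TPM with 5G6, against 32.7 and 29.3 TPM with DMSO for DDIT3, the gene of CHOP (adjusted p = 0.199). PYCR1, an ATF4 target of proline synthesis, had 45.0 and 54.4 TPM with 5G6, against 87.3 and 88.4 TPM with DMSO (adjusted p = 0.0916). Of 21 chaperones of the endoplasmic reticulum 0 were called, with a median of 0.28 (0.15 to 0.41 in the leave-outs, lowest without DMSO replicate 1). In the 4 leave-outs the ATF4 list had 1, 2, 0 and 2 calls.

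Cytosolic and mitochondrial chaperones went the other way. Of 23 heat shock genes 8 fell and 0 rose, with a median of -0.81, and 19 had both 5G6 values below both DMSO values (28.7% of all genes did). After median-of-ratios scaling 2 were called, with a median of -0.73. CCT3, a subunit of the TRiC complex that folds tubulin and actin, had 275 and 326 TPM with 5G6, against 505 and 552 TPM with DMSO (log2 fold change -0.81 ± 0.14, adjusted p = 0.0131). HSPD1, the mitochondrial chaperonin HSP60, had 382 and 555 TPM with 5G6, against 986 and 1005 TPM with DMSO (adjusted p = 0.0384; 0.0692 after that scaling). No 5G6 value of these genes reached a DMSO value. The list had 0, 0, 0 and 1 calls in the 4 leave-outs.

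Of 24 targets of the antioxidant factor NRF2, FTH1 alone was called (4.17%, against 4.06% of all genes). This gene of the ferritin heavy chain had 15803 and 13642 TPM with 5G6, against 8439.9 and 9588 TPM with DMSO (log2 fold change 0.71 ± 0.16, adjusted p = 0.0353, and 0.133 after median-of-ratios scaling). FTH1 has many processed pseudogenes, so its level is uncertain. The list median was -0.19, and HMOX1, heme oxygenase, had 269 and 299 TPM with 5G6, against 257 and 238 TPM with DMSO (adjusted p = 0.883). Of 14 aldo-keto reductases and aldehyde dehydrogenases, many of them hallmarks of A549, AKR1A1 alone was called (7.14%). It had 259 and 222 TPM with 5G6, against 81.7 and 89.4 TPM with DMSO (log2 fold change 1.48 ± 0.17, adjusted p = 0.00463). ALDH1A1, the retinal dehydrogenase, had 3068 and 4226 TPM with 5G6, against 7708 and 8882 TPM with DMSO, lower in both 5G6 libraries and not called (adjusted p = 0.222).

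Inflammatory genes rose in part. Of 24 NF-kB and chemokine genes 4 rose and 0 fell, with a median of 0.92, and 19 had both 5G6 values above both DMSO values (20% of all genes did). SOD2, the mitochondrial superoxide dismutase, had 1118 and 965 TPM with 5G6, against 229 and 184 TPM with DMSO (log2 fold change 2.33 ± 0.28, adjusted p = 0.00585). CSF1, the macrophage growth factor, had 128 and 75.8 TPM with 5G6, against 30.5 and 31.7 TPM with DMSO (adjusted p = 0.00912), IL6, the interleukin, 60.4 and 47.7 TPM with 5G6, against 15.6 and 13.6 TPM with DMSO (adjusted p = 0.0316), and CXCL5, a neutrophil attractant, 1153 and 1403 TPM with 5G6, against 655 and 732 TPM with DMSO (adjusted p = 0.0357; 0.0546 after median-of-ratios scaling). All were higher in both 5G6 libraries. In the 4 leave-outs the list had 1, 2, 1 and 2 calls, and SOD2 was called in each of them. The summed level of leukocyte markers given above moved the same way, with CD3E listed at 0 in all 4 libraries. Interferon-stimulated genes (26 tested), MHC class I genes (10) and acute-phase genes (18) had 0 called, with medians of 0.45, 0.71 and 0.86. The interferon median turned with single libraries, to -0.47, 1.25, 1.07 and -0.43 in the 4 leave-outs. The MHC median ran from 0.10 to 1.39 and the acute-phase median from 0.54 to 0.87, lowest without 5G6 replicate 1 in both. ISG15, a ubiquitin-like interferon product, had 2158 and 1101 TPM with 5G6, against 896 and 528 TPM with DMSO, so replicate 1 stood above replicate 2 in both groups (adjusted p = 0.336).

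DNA replication genes fell together. All 24 tested genes of the MCM helicase, its CMG partners and the origin factors had both 5G6 values below both DMSO values (28.7% of all genes did), 17 were called lower and 0 higher, and the median was -1.74. MCM2 to MCM7 form the ring that unwinds DNA. MCM6 had 13.5 and 18.8 TPM with 5G6, against 84.4 and 74.2 TPM with DMSO (log2 fold change -2.24 ± 0.31, adjusted p = 0.00708), MCM3 25.1 and 27.8 TPM with 5G6, against 107 and 86.1 TPM with DMSO (adjusted p = 0.00787) and MCM2 22.3 and 20.5 TPM with 5G6, against 71.4 and 56.8 TPM with DMSO (adjusted p = 0.0101). The helicase genes stood about 3-fold to 5-fold lower with 5G6 and the 2 libraries of a group were near each other. ORC1, a subunit of the complex that marks origins, had 3.36 and 6.11 TPM with 5G6, against 23.8 and 18.2 TPM with DMSO (adjusted p = 0.0347). GINS2, a part of the CMG helicase, had 6.53 and 7.20 TPM with 5G6, against 46.4 and 34.5 TPM with DMSO (adjusted p = 0.0106). GMNN, geminin, which blocks a second loading of the helicase, had 20.3 and 25.6 TPM with 5G6, against 70.3 and 54.3 TPM with DMSO (adjusted p = 0.0318; 0.0531 after median-of-ratios scaling).

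The promoters of MCM6, GINS2 and UHRF1 are shown because all 3 genes fell at least 4-fold and hold the letters TTTCCCGC or TTTGGCGC, forms of the site bound by E2F, the factor family that switches on S phase genes. UHRF1, which keeps DNA methylation in step with replication, had 14.7 and 13.8 TPM with 5G6, against 87.3 and 48.1 TPM with DMSO (log2 fold change -2.11 ± 0.40, adjusted p = 0.0165). The 250 bases before each start (RefSeq, GRCh38.p14) are MCM6 at chr2:135876444-135876693 and GINS2 at chr16:85688955-85689204 on the minus strand and UHRF1 at chr19:4909251-4909500 on the plus strand, with matches on either strand in capitals.
MCM6: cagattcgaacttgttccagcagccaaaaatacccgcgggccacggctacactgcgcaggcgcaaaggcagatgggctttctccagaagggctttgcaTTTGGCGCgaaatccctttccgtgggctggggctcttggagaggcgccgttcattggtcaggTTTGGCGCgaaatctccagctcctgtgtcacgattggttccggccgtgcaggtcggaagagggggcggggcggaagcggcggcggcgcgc
GINS2: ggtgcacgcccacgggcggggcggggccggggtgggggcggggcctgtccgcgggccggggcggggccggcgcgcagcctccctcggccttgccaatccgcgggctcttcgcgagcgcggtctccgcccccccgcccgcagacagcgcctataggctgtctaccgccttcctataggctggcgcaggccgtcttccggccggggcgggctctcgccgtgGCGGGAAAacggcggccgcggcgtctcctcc
UHRF1: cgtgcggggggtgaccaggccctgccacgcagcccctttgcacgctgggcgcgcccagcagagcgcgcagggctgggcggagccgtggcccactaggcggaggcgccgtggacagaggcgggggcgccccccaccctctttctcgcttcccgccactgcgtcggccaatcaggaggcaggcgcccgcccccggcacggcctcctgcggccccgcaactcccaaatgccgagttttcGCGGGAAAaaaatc
Among genes with a promoter of 300 bases in the table, these letters were found in 11 of 20 of the helicase and origin list (55%) and 8 of 27 of the fork list (29.6%). They were in 2.84% of genes called higher, 12.6% of genes called lower and 3.67% of genes tested, and in 2.31% of all promoters.

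At the replication fork 21 of 31 genes fell (2.11% of all genes did) and 0 rose, with a median of -1.40. All 31 had both 5G6 values below both DMSO values (28.7% of all genes did). LIG1, the ligase that joins Okazaki fragments, had 17.7 and 20.1 TPM with 5G6, against 54.5 and 51.1 TPM with DMSO (log2 fold change -1.43 ± 0.21, adjusted p = 0.00788). PCNA, the sliding clamp, had 236 and 293 TPM with 5G6, against 669 and 699 TPM with DMSO (adjusted p = 0.0117), and POLA2, of the primase complex, 6.91 and 8.44 TPM with 5G6, against 30.8 and 27.9 TPM with DMSO (adjusted p = 0.0119). In all 3 even the higher 5G6 value was less than 50% of the lower DMSO value. In homologous recombination 7 of 20 genes fell (35%, against 2.11% of all genes) and 0 rose, with a median of -1.58. EXO1, a nuclease that resects DNA ends, had 3.52 and 5.52 TPM with 5G6, against 26.1 and 24.3 TPM with DMSO (adjusted p = 0.0366), and FANCG, of the Fanconi core complex, 9.64 and 16.4 TPM with 5G6, against 40.5 and 42.9 TPM with DMSO (adjusted p = 0.038). The 4 leave-outs gave 0, 3, 0 and 7 calls in the helicase list, 0, 1, 0 and 5 in the fork list and 0, 0, 0 and 0 in the recombination list.

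Mitotic genes had a similar median of -1.57, yet 0 of 33 were called. In 32 of them both 5G6 values stood below both DMSO values (28.7% of all genes did). AURKA, a kinase of the spindle poles, had 32.0 and 59.6 TPM with 5G6, against 134 and 132 TPM with DMSO (log2 fold change -1.58 ± 0.44, adjusted p = 0.0673), and BIRC5, survivin, 45.0 and 66.8 TPM with 5G6, against 159 and 137 TPM with DMSO (adjusted p = 0.0623). MKI67, the proliferation marker Ki-67, had 12.4 and 29.9 TPM with 5G6, against 69.2 and 71.4 TPM with DMSO (adjusted p = 0.16). In the list of G1 cyclins and inhibitors 5 of 22 genes fell and 0 rose, and the 4 leave-outs gave 0, 0, 0 and 1 calls. CCND3, cyclin D3, had 115 and 124 TPM with 5G6, against 452 and 405 TPM with DMSO (adjusted p = 0.0105), and E2F8, a repressor of the E2F family, 1.58 and 2.45 TPM with 5G6, against 11.7 and 10.2 TPM with DMSO (adjusted p = 0.0215). CDKN1A, the cell cycle inhibitor p21, had 347 and 276 TPM with 5G6, against 158 and 168 TPM with DMSO, higher in both 5G6 libraries and not called (adjusted p = 0.215). Of 25 targets of p53, 2 rose, GDF15 and TP53INP1, and the median was 0.23. In the 4 leave-outs it was 0.51, -0.13, -0.10 and 0.56, so its sign turned without 5G6 replicate 2 and also without DMSO replicate 1.

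**Figure D3:**
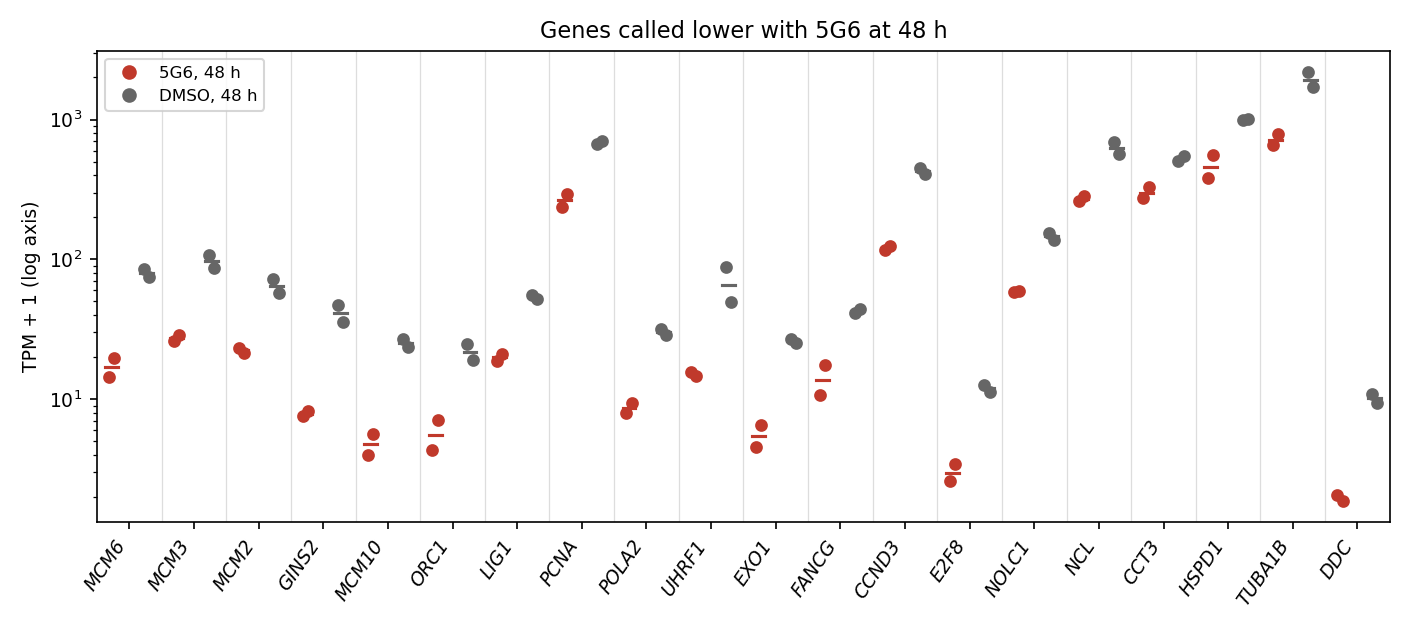
Points are single libraries, TPM + 1 on a log axis, of 20 genes called lower, with 5G6 left of DMSO for each gene and a bar at the mean of the logs. The 5G6 points lie below the DMSO points in every gene shown, from DDC (1.05 and 0.883 TPM with 5G6) to TUBA1B (659 and 784 TPM with 5G6).

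Genes of ribosome assembly were lower while ribosomal proteins moved little. Of 35 assembly factors 11 fell and 0 rose, with a median of -0.82; after median-of-ratios scaling 5 were called. NOLC1, a nucleolar chaperone, had 57.6 and 58.8 TPM with 5G6, against 154 and 137 TPM with DMSO (log2 fold change -1.30 ± 0.24, adjusted p = 0.0152), and NCL, nucleolin, 260.4 and 283 TPM with 5G6, against 685 and 562 TPM with DMSO (adjusted p = 0.017). Both were about 2-fold lower, with no overlap. The 50 cytosolic ribosomal proteins had 0 called and a median of -0.12, near that of all genes. Mitochondrial ribosomal proteins had 2 of 32 called lower and a median of -0.49; MRPL3 was the first of them by p, with 59.1 and 64.9 TPM with 5G6, against 131 and 122 TPM with DMSO (adjusted p = 0.00788). The assembly list had 0, 0, 0 and 5 calls in the 4 leave-outs.

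In other growth pathways 1 to 3 genes of a list fell. Purine, folate and serine synthesis had 3 of 24 genes called lower and a median of -0.82, with 55.2 and 71.3 TPM with 5G6, against 125 and 123 TPM with DMSO for PRPS1, which makes the ribose phosphate of nucleotides (adjusted p = 0.0131). Cytosolic tRNA synthetases had 3 of 20 called lower, the phenylalanine enzyme subunit FARSB first by p at 34.6 and 35.4 TPM with 5G6, against 87.0 and 87.3 TPM with DMSO (adjusted p = 0.00912). The nuclear-encoded respiratory chain had 1 of 43 called lower, ATP5MC1, a ring subunit of ATP synthase, and the proteasome 1 of 31, PSMD6, a lid subunit. The shares of these last lists are near the 2.11% of all genes called lower, and neither gene was called after median-of-ratios scaling (adjusted p = 0.0883 and 0.0536). Tubulins moved both ways. TUBA1B, the main alpha tubulin, had 659 and 784 TPM with 5G6, against 2182 and 1699 TPM with DMSO (log2 fold change -1.42 ± 0.26, adjusted p = 0.0152), while its paralog TUBA1A had 252 and 291 TPM with 5G6, against 102 and 129 TPM with DMSO (adjusted p = 0.0356; 0.0525 after median-of-ratios scaling). Tubulin genes are near-identical, so reads could be split between paralogs and both values are uncertain.

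Cell identity genes changed singly. KRT19, an epithelial keratin, had 291 and 391 TPM with 5G6, against 37.4 and 80.7 TPM with DMSO (log2 fold change 2.59 ± 0.47, adjusted p = 0.015), and ITGA3, an integrin for laminin, 618 and 534 TPM with 5G6, against 286 and 261 TPM with DMSO (adjusted p = 0.0238); they were the 2 called of 31 keratin, adhesion and mesenchymal genes. MUC1, a membrane mucin, had 29.2 and 31.3 TPM with 5G6, against 11.0002 and 12.4 TPM with DMSO (adjusted p = 0.0415) and rose while DDC of the same list of 15 fell. Targets of YAP and TEAD (15 tested) had 0 called. In IGF signalling 1 of 12 genes was called, IGFBP1, an insulin-like growth factor binding protein, with 852 and 1181 TPM with 5G6, against 40.2 and 139.6 TPM with DMSO (log2 fold change 3.72 ± 0.46, adjusted p = 0.00585). The DMSO libraries differed more than 3-fold in IGFBP1, and the lower 5G6 value was still about 6 times the higher DMSO value. Of 4 metallothioneins 0 were called.

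Several of the largest rises lay outside the lists. IGFL2-AS1, an antisense RNA at the IGFL2 locus on chromosome 19 (GRCh38, chr19:46189029-46203062), had 127 and 281 TPM with 5G6, against 3.86 and 5.65 TPM with DMSO (log2 fold change 5.06 ± 0.63, adjusted p = 0.00585). IGFL2, on the opposite strand over the same interval, had 14.8 and 59.4 TPM with 5G6, against 1.18 and 1.48 TPM with DMSO (adjusted p = 0.0455). Whether counting used strand is not given in the sources used here, so reads of the 2 genes cannot be told apart. NID2, a basement membrane nidogen, had 119.7 and 107 TPM with 5G6, against 13.5 and 10.1 TPM with DMSO (adjusted p = 0.0116), and CEMIP, which degrades hyaluronan, 11.4 and 59.4 TPM with 5G6, against 0.557 and 3.33 TPM with DMSO (adjusted p = 0.0163). SPINK1, a trypsin inhibitor, had 34.3 and 6.13 TPM with 5G6, against 0 and 0.181 TPM with DMSO (adjusted p = 0.0256), with 1 DMSO library listed at 0 and the 5G6 libraries more than 5-fold apart. RNF113A was listed at 0 in both DMSO libraries at 48 h and at 38.9 and 35.6 TPM with 5G6. It was at 29.0 and 36.8 TPM with DMSO at 4 h, so no fold is given. Among called genes, 10 higher ones were listed at 0 in both DMSO libraries and 2 lower ones in both 5G6 libraries. Outside the lists the falls included CCDC80, a secreted matrix protein, with 2.11 and 2.59 TPM with 5G6, against 22.7 and 9.94 TPM with DMSO (adjusted p = 0.0422).

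The time course asks whether the response at 48 h differs from that at 4 h, each against its own DMSO. limma called 0 of 15958 genes for that difference (0%), 1212 had an unadjusted p below 0.05, and 18 were called without a filter on low values. Leaving out any 1 of the 8 libraries gave 0 to 2 calls, the 2 without DMSO replicate 2 at 48 h. Of the 311 genes called higher at 48 h, 284 had a positive log2 fold change at 4 h (66.2% of all genes did), with a median of 0.48 at 4 h and 1.53 at 48 h. Of the 337 called lower, 249 had a negative one at 4 h (33.6% of all genes did), with a median of -0.1 at 4 h and -1.11 at 48 h. The mevalonate median was 1.61 at 4 h and 2.28 at 48 h, while the helicase median was -0.037 at 4 h and -1.74 at 48 h. MCM6 had 55.2 and 74.3 TPM with 5G6, against 75.2 and 71.8 TPM with DMSO at 4 h, and the difference between times was -2.05 ± 0.44 (adjusted p = 0.46). IGFBP1 had 60.4 and 54.1 TPM with 5G6, against 40.7 and 48.3 TPM with DMSO at 4 h, with a difference of 3.36 ± 0.66 (adjusted p = 0.46). DDC had the smallest p of these, 6.43 and 5.74 TPM with 5G6, against 6.93 and 6.40 TPM with DMSO at 4 h and a difference of -2.25 ± 0.32 (adjusted p = 0.21). FLCN stood further above DMSO at 4 h, with 62.9 and 72.9 TPM with 5G6, against 21.6 and 20.9 TPM with DMSO, and its difference was -0.81 ± 0.31 (adjusted p = 0.584).

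**Figure D4:**
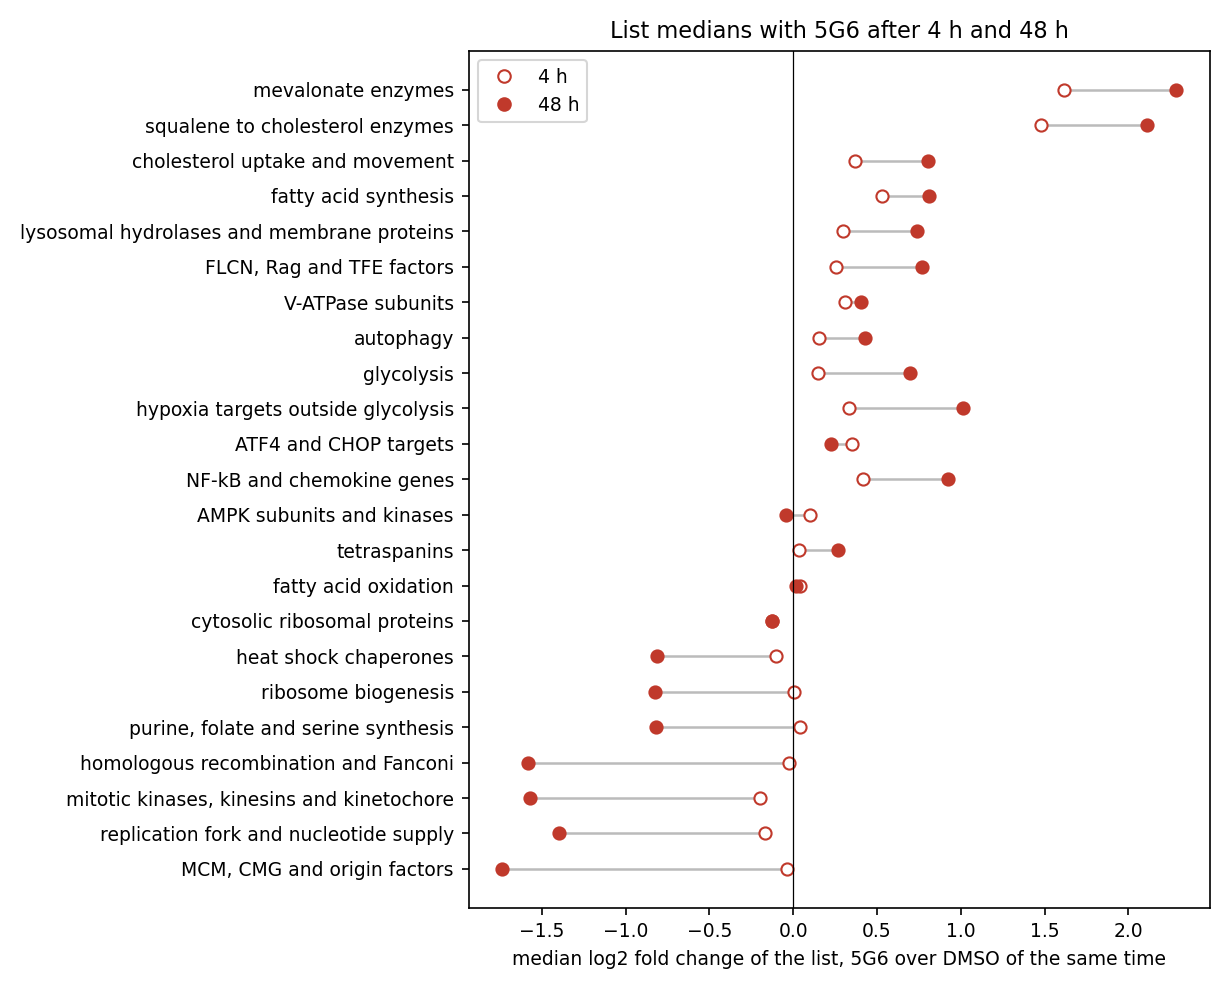
Each row is a gene list, with its median log2 fold change, 5G6 over DMSO of the same time, at 4 h (open) and 48 h (filled). The sterol synthesis lists stand above 1 at both times, and replication lists lie near 0 at 4 h and below -1 at 48 h.

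Against the other compounds at the same time, 5G6 was set directly, so that DMSO cancels. Against 6D7 limma called 1 of 15958 genes, 0 higher and 1 lower (0.00627%), and 340 had an unadjusted p below 0.05. The gene was ISY1-RAB43, a read-through transcript listed at 0 in both 5G6 libraries and at 11.6 and 9.39 TPM with 6D7, so no fold is given. Without 5G6 replicate 2, 6D7 replicate 1 or 6D7 replicate 2 the count was 2, 5 and 42. Chromosome M held 6.13 and 6.48% of the deposited TPM of the 6D7 libraries, against 28 to 32.1% in those of 5G6 and DMSO at 48 h. Its genes were dropped before rescaling, and its part in the result was not tested. The genes of the main findings did not differ detectably. MSMO1 had 532 and 481 TPM with 5G6 and 308 and 399 TPM with 6D7, a log2 difference of 0.53 with a 95% interval of -0.55 to 1.604. NEU1 had 157 and 142 TPM with 5G6 and 122 and 140.3 TPM with 6D7, a difference of 0.19 with a 95% interval of -0.33 to 0.71. For MCM6 it was 0.17 with a 95% interval of -0.51 to 0.84 and for DDC -0.052 with a 95% interval of -0.54 to 0.44. Intervals this wide do not show that the compounds act alike.

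Against 7F8 limma called 46 genes (0.288%), 41 higher (0.257%) and 5 lower (0.0313%) with 5G6, and 1453 had an unadjusted p below 0.05. Of the 46, 19 were also called against DMSO, so a difference from 7F8 is not by itself a change from DMSO. After median-of-ratios scaling 17 were called, 15 higher and 2 lower. CA9, carbonic anhydrase IX, a hypoxia target, had 83.8 and 109 TPM with 5G6 and 4.60 and 9.17 TPM with 7F8, a log2 difference of 3.68 with a 95% interval of 2.38 to 4.98 (adjusted p = 0.0362). In DMSO CA9 stood at 10.3 and 35.9 TPM, between the compounds. FXYD2, a regulator of the sodium pump, had 963 and 324 TPM with 5G6 and 25.6 and 34.03 TPM with 7F8 (log2 difference 4.195 with a 95% interval of 2.69 to 5.70, adjusted p = 0.0397), and ANXA13, an annexin, 23.5 and 32.6 TPM with 5G6 and 0.484 and 1.77 TPM with 7F8 (3.82 with a 95% interval of 2.35 to 5.30, adjusted p = 0.0431). The 5G6 values were the higher ones without overlap in all 3. In the other direction EFNA1, an ephrin, had 189 and 95.9 TPM with 5G6 and 915 and 656 TPM with 7F8 (log2 difference -2.51 with a 95% interval of -3.48 to -1.54, adjusted p = 0.0431), and G0S2, an inhibitor of the triglyceride lipase, 20.8 and 14.2 TPM with 5G6 and 108 and 66.0 TPM with 7F8 (-2.23 with a 95% interval of -2.93 to -1.53, adjusted p = 0.0327). IGFL2-AS1 was called here too, at 127 and 281 TPM with 5G6 and 7.50 and 25.9 TPM with 7F8 (3.65 with a 95% interval of 2.27 to 5.03, adjusted p = 0.0423). MSMO1 stood higher in both 5G6 libraries without being called, at 532 and 481 TPM with 5G6 and 325 and 82.4 TPM with 7F8, a difference of 1.62 with a 95% interval of 0.54 to 2.70 (adjusted p = 0.251). Of the 46, 13 were called in at least 1 of 4 leave-outs of these libraries and 0 in all. Without 5G6 replicate 1, 5G6 replicate 2, 7F8 replicate 1 or 7F8 replicate 2 the count was 4, 1, 11 and 20.

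**Figure D5:**
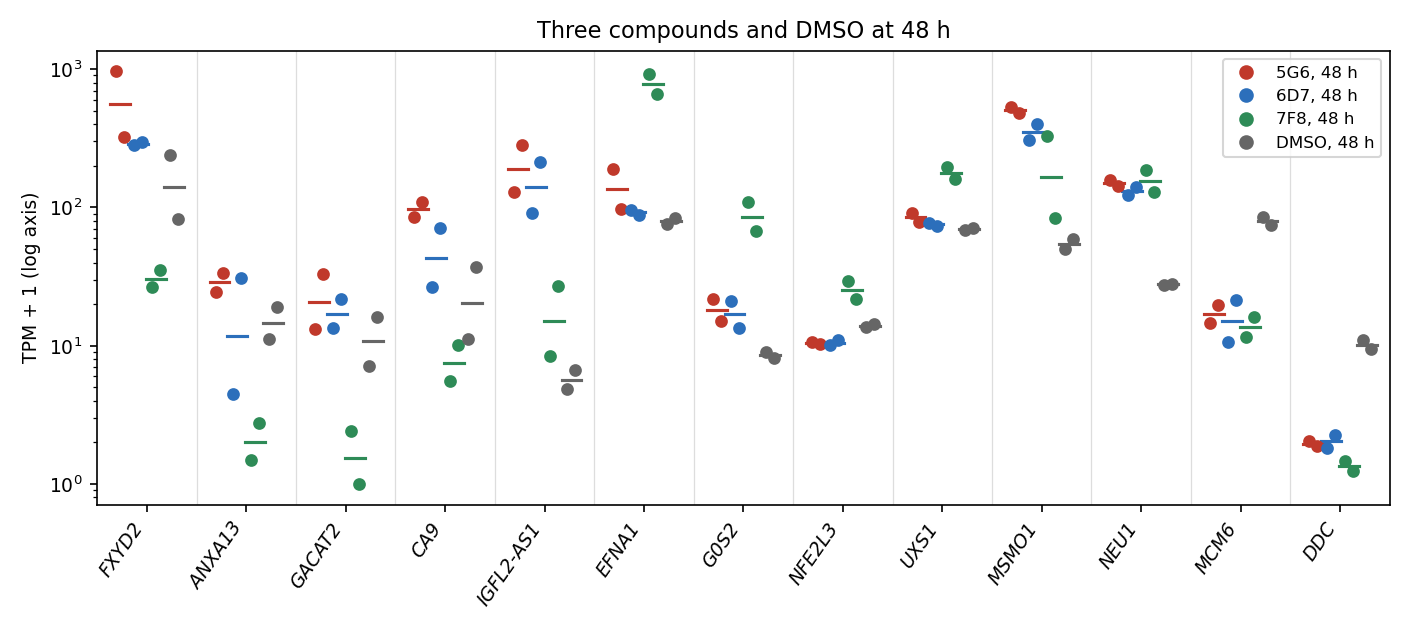
Points are single libraries at 48 h, TPM + 1 on a log axis, with 5G6, 6D7, 7F8 and DMSO from left to right for each gene and a bar at the mean of the logs. EFNA1 (189 and 95.9 TPM with 5G6, 915 and 656 TPM with 7F8) and FXYD2 separate 5G6 from 7F8, while the points of MCM6 and DDC lie below those of DMSO with all 3 compounds.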

How the data were processed

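Per the labels' protocols, NEBNext Ultra libraries were prepared from TRIzol-extracted, DNase-treated RNA of A549-CD63-Nluc cells, and the molecule is given as polyA RNA. No strandedness is stated. The submitters' processing notes name STAR 2.6.1a, featureCounts 1.6.3, StringTie 2.0 and GRCh38, without roles. Per the file headers, the authors deposited StringTie TPM (length-normalized, scaled to a fixed sum), FPKM (scaled by length and aligned fragments) and coverage (mean read coverage of a gene, a signal without scaling between libraries).

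Chromosome M, 28 to 32.1% of TPM in the 4 libraries, was dropped, TPM rescaled to its original sum and values added up by gene name. TPM sums to a fixed total, so a change in abundant genes shifts all others. limma 3.58.1 (R 4.3.3) was fitted with a mean-variance trend to log2(TPM + 1) of all 16 libraries with 8 group means (8 residual degrees of freedom), over the 15958 genes that reached 1 TPM in 2 or more libraries. Tests were two-sided with Benjamini-Hochberg adjustment within each of 4 comparisons: 5G6 against DMSO at 48 h, that effect minus the effect at 4 h, and 5G6 against 6D7 and against 7F8 at 48 h. A permutation test of 2 against 2 libraries cannot reach the threshold and was not used. The procedure was tested on simulated data in which the noise of each library was drawn independently. Deviations of same-numbered replicates correlated in the real data, so the simulation cannot show how the calls fare under such shared deviations. Python 3.11.15 with numpy 2.4.6 and pandas 2.3.3 handled the tables, and matplotlib 3.10.9 drew the figures.

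The comparison, the 47 gene lists (1042 genes) and the rule for named genes were chosen with earlier results of these data known. The rule took the 14 largest called rises, the 14 largest called falls and the 4 largest called differences each way between compounds. These were limited to genes with a name, a mean of at least 5 TPM in the higher group and no overlap. Without these limits the rule also took the 4 members of each list with the smallest p, all members of lists with at most 14 tested genes and a fixed set. The text prints a part of these. PSAP, SMPD1, ARSA, CTSA, CSTB, ABHD3, ALDOA, PDK1, SLC16A3, FADS1, FADS2, HSPD1, ORC1, GMNN, NCL, ATF4, PYCR1 and TM4SF4 were named outside it after their values were seen. Some genes are not reported here. Alternatives were other pseudocounts (0.1), filters (none, or TPM of at least 5), scalings, FPKM, variance models, library subsets, a replicate block and leaving out each library, and, added after the data were seen, coverage with median-of-ratios scaling.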

Additional observations from a re-analysis of the deposited data

How the results depend on the processing

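For 5G6 against DMSO at 48 h, the count of 648 calls stayed between 517 and 677 with a pseudocount of 0.1, no filter, a filter of 5 TPM, chromosome M kept, median-of-ratios scaling, FPKM, no trend, or coverage. The genes were only partly the same, with 432 (no filter) to 592 (filter of 5 TPM) of the 648 called again. With chromosome M kept 286 were called higher and 231 lower, and with coverage 358 and 216. The count of 648 calls also changed more in other settings. It was 6 with the 48 h libraries alone, 56 with the 4 libraries alone, where fewer libraries inform the spread, and 9 to 221 leaving out 1 library of these groups. The 48 h minus 4 h count of 0 was 18 without a filter and 0 to 2 in leave-outs. The count of 1 against 6D7 was 0 with a pseudocount of 0.1, with a filter of 5 TPM and with the 48 h libraries alone, 31 without a filter, 3 with chromosome M kept and 1 to 42 in leave-outs (42 without 6D7 replicate 2). The count of 46 against 7F8 was 17 with median-of-ratios scaling, 29 with coverage, 1 with the 48 h libraries alone and 1 to 20 in leave-outs. The cause of these shifts was not tested.

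The labels number the replicates but do not say that a number marks a shared day or culture. Differences between replicate 1 and 2 correlated at 0.541 between 5G6 and DMSO at 48 h, and at 0.0536 to 0.588 over all 28 pairs of groups. With a replicate block the counts were 1709 (711 higher, 998 lower, all 648 among them), 0, 1 and 181, and with the block and median-of-ratios scaling 1578, 0, 1 and 153. Of the 33 mitotic genes, 0 without the block, 23 were called lower with it.

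Over the 142 gene values named in the text and 2260 recomputations, 1608 kept direction and side of the threshold, 598 kept direction and lost the call, 48 gained one and 6 changed sign, all of them uncalled differences between 5G6 and 6D7. Leaving out 1 library, DDC ranged from -0.20 to 0.098 and MCM6 from -0.33 to 0.67. MCM6 was at -0.22 with chromosome M kept, and NEU1 was at -0.23 with chromosome M kept. List medians moved by more than the spread between replicates in 80 of 752 recomputations. Depth in reads is unknown, so no floor can be given for genes listed at 0.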

Other observations

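A few further genes are given here by their values. PIP, a secreted glycoprotein, had 34.5 and 8.32 TPM with 5G6, against 0.599 and 0.734 TPM with DMSO (log2 fold change 3.45 ± 0.61, limma adjusted p = 0.0134), and the 5G6 libraries differed by more than 4-fold. E2F2, an E2F factor of S phase from the list of G1 cyclins and inhibitors, had 0.931 and 2.20 TPM with 5G6, against 9.70 and 8.99 TPM with DMSO (adjusted p = 0.031), and CLSPN of the helicase and origin list, claspin, which relays replication stress, 1.61 and 4.11 TPM with 5G6, against 15.8 and 14.8 TPM with DMSO (adjusted p = 0.0499; 0.0539 after median-of-ratios scaling). EPCAM, an epithelial adhesion molecule, had 1.55 and 1.98 TPM with 5G6, against 7.70 and 7.84 TPM with DMSO, with pairs of close values far apart between groups, and was not called (adjusted p = 0.0834). TM4SF4, a membrane protein of the tetraspanin-like L6 family, had 24.4 and 26.3 TPM with 5G6, against 132 and 95.7 TPM with DMSO (adjusted p = 0.186). SAA2, a serum amyloid, had 33.9 and 11.2 TPM with 5G6, against 5.58 and 1.99 TPM with DMSO, and both groups spread about 3-fold (adjusted p = 0.135).

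CLEC11A, a secreted growth factor of bone marrow, had 17.4 and 13.1 TPM with 5G6 and was listed at 0 in both DMSO libraries at 48 h, in both 6D7 libraries at 48 h and in 1 of the 2 7F8 libraries at 48 h. It was at 9.87 and 12.6 TPM with DMSO at 4 h. MIR6783, the largest called fall among genes of at least 5 TPM, had 2.13 and 3.36 TPM with 5G6, against 31.0 and 17.3 TPM with DMSO (adjusted p = 0.0305). This microRNA lies within KIF18B on the same strand of chromosome 17, so its value in polyA RNA cannot be told apart from that of its host gene.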
